A study of Bos taurus with 31 samples.

Results

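The genes described here encode enzymes of mitochondrial fatty acid oxidation and ketogenesis in the liver of dairy cows. They were the rows of the raw count matrix that carry the symbols *CPT1A*, *CPT2*, *ACADVL*, *ACADM*, *HADHA*, *HADHB*, *ACAT1* and *BDH1*. All 8 symbols were found among the 19655 genes with a symbol and the 24616 genes in all, and all 8 passed the minimum of 20 reads summed over the cows, as did 15916 genes in all. The cows were lactating German Holsteins, and liver was sampled by puncture biopsy after 16 weeks of feeding, with 1 RNA-seq library from each of 31 animals. CONHC (8 cows) and CONLC (8 cows) received a control ration, in which concentrate made up 60% and 30% of the feed, respectively. GLYHC (8 cows) and GLYLC (7 cows) received the same proportions of concentrate (60% and 30%), but their wheat grain, peas and straw came from fields sprayed with a glyphosate herbicide before harvest, so that the ration carried glyphosate residues. According to the paper, the control rations also held glyphosate, at a far lower background level. It also reports that GLYHC cows ate more and took in more glyphosate per body weight than GLYLC cows. GLYHC and GLYLC thus differ in concentrate and in glyphosate intake. The concentrate feed proportion is called CFP, and HC and LC stand for both groups with the high and with the low proportion.

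In the liver, long-chain fatty acids enter mitochondria as acylcarnitines. Carnitine palmitoyltransferase 1A makes these at the outer membrane, a step that malonyl-CoA inhibits, and carnitine palmitoyltransferase 2 turns them back into acyl-CoA inside. Each round of oxidation is opened by an acyl-CoA dehydrogenase and, for long chains, completed by the trifunctional protein. Surplus acetyl-CoA is converted to acetoacetate in a route that acetyl-CoA acetyltransferase opens, and 3-hydroxybutyrate dehydrogenase then interconverts acetoacetate and 3-hydroxybutyrate. In dairy cows this route is best known from early lactation, when fat is mobilised, and ruminants are known for low activity of the last enzyme in liver.

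The libraries held from 11675775 to 36675542 reads within genes. Levels are given as counts per 1000000 reads (CPM) after TMM scaling of the library sizes. They were not divided by transcript length and serve to compare cows for 1 gene, not genes with each other. The biopsies carried the hepatocyte markers *ALB*, *APOA1*, *TTR*, *SERPINA1*, *TF* and *FGB*, with a summed level of 102311 to 206537 CPM per cow. Markers of another tissue stood out in some libraries, most in 5. GLYLC cow 912 had 404 CPM of intestinal epithelium markers against at most 105 CPM elsewhere and also the lowest hepatocyte sum, and CONLC cow 166, GLYHC cow 127, CONHC cow 123 and CONLC cow 103 had 2650, 1412, 1081 and 1021 CPM of skeletal muscle markers. CONLC cow 103 also had 2109 CPM of fibroblast markers (next cow of its group 430.2), and at lower levels GLYLC cow 544 had 57.9 CPM of adipocyte markers (next 6.46) and GLYHC cow 154 had 8.50 CPM of epidermis markers (next 5.95, and at most 1.23 in the other groups). Between HC and LC, edgeR called 3 of 6 intestinal epithelium, 1 of 4 fibroblast and 2 of 3 epidermis markers. It called 0 of the 6 hepatocyte and 4 skeletal muscle markers. The median log2 fold change over the markers was -3.20 for intestinal epithelium, -1.39 for fibroblast and 2.40 for epidermis. The group median of the intestinal sum was 62.1 CPM in CONHC, 63.4 in CONLC, 76.5 in GLYHC and 69.2 in GLYLC. GLYLC cow 912 had 205.8 CPM of *FABP2*, an intestinal marker whose median was 0 in each group. The 3 epidermis markers also had an unadjusted p under 0.05 in GLYHC against GLYLC and against CONHC. Values without the 5 libraries named first are given beside the ratios, the spread and the correlations. In whole biopsies, fewer cells of a type and less RNA per cell cannot be told apart.

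The first question was whether CFP or glyphosate residues went along with a different level of these enzymes. In none of 7 comparisons was a member called different. A call required edgeR's quasi-likelihood test to give p under 0.05 before and under 0.1 after Benjamini-Hochberg adjustment over all tested genes. Between HC and LC cows, with treatment as a covariate, 0 of 8 members were called and 0 had an unadjusted p under 0.05, where 1.45% of all tested genes were called and 13.7% had such a p. The same counts of 0 and 0 members were found for CONHC versus CONLC (0% and 5.96% of all genes), GLYHC versus GLYLC (0.201% and 12.5%), GLYLC versus CONLC (0.0628% and 5.65%) and, with CFP as a covariate, GLY versus CON (0% and 3.92%). For GLYHC versus CONHC 0 members were called and 2 had an unadjusted p under 0.05 (0% and 2.92% of all genes), and for the interaction of GLY with CFP the members' counts were 0 and 1 (0% and 4.21%). DESeq2 likewise called 0 members in each of the 7 comparisons. The smallest adjusted p of a member in any comparison was 0.423, for *CPT2* between GLYHC and GLYLC (edgeR quasi-likelihood test). The median log2 fold change over the 8 members was 0.01 between HC and LC, beside -0.01 over all genes tested, and 0.19 between GLYHC and GLYLC, beside -0.01.

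*CPT1A* and *CPT2* encode both transferases of the carnitine shuttle. The lowest, median and highest levels of *CPT1A* were 122, 169.6 and 209 CPM in CONHC, and 63.3, 122 and 247.5 CPM in CONLC. In GLYHC they were 157, 168.5 and 245 CPM, and in GLYLC 111, 144 and 194 CPM. The medians of both HC groups were above those of both LC groups, but the groups overlapped, since the highest CONLC cow exceeded every HC cow. The log2 fold change of *CPT1A* between HC and LC was 0.23 (SE 0.14, 95% confidence interval -0.06 to 0.52, edgeR adjusted p = 0.487). The estimates were 0.22 (SE 0.20) in CON and 0.26 (SE 0.21) in GLY cows, and that between GLYHC and CONHC was 0.09. With 1 cow left out, the estimate ran from 0.10 to 0.37 in CON and from 0.18 to 0.33 in GLY cows. Under other settings it ran from 0.08 to 0.22 in CON and from 0.21 to 0.26 in GLY cows. The lowest CONLC cow was cow 166, the library with the highest sum of muscle markers.

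*CPT2*, the inner-membrane partner of *CPT1A*, had lowest, median and highest levels of 133, 155 and 211 CPM in CONHC and of 143, 173 and 204 CPM in CONLC. In GLYHC they were 158, 175 and 219.6 CPM and in GLYLC 94.4, 149 and 210.1 CPM. The lowest GLYHC cow was above the median GLYLC cow, and the ranges overlapped. The log2 fold change between GLYHC and GLYLC was 0.23 (SE 0.12, 95% confidence interval -0.01 to 0.48, unadjusted p = 0.0591 and adjusted p = 0.423 by edgeR). Between CONHC and CONLC it was -0.09. With 1 cow left out, the estimate between GLYHC and GLYLC lay between 0.14 and 0.33, with adjusted p from 0.203 to 0.755 by edgeR. Under other settings this estimate lay between 0.17 and 0.25. The lowest GLYLC cow was cow 912, the library with intestinal markers.

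**Figure D1:**
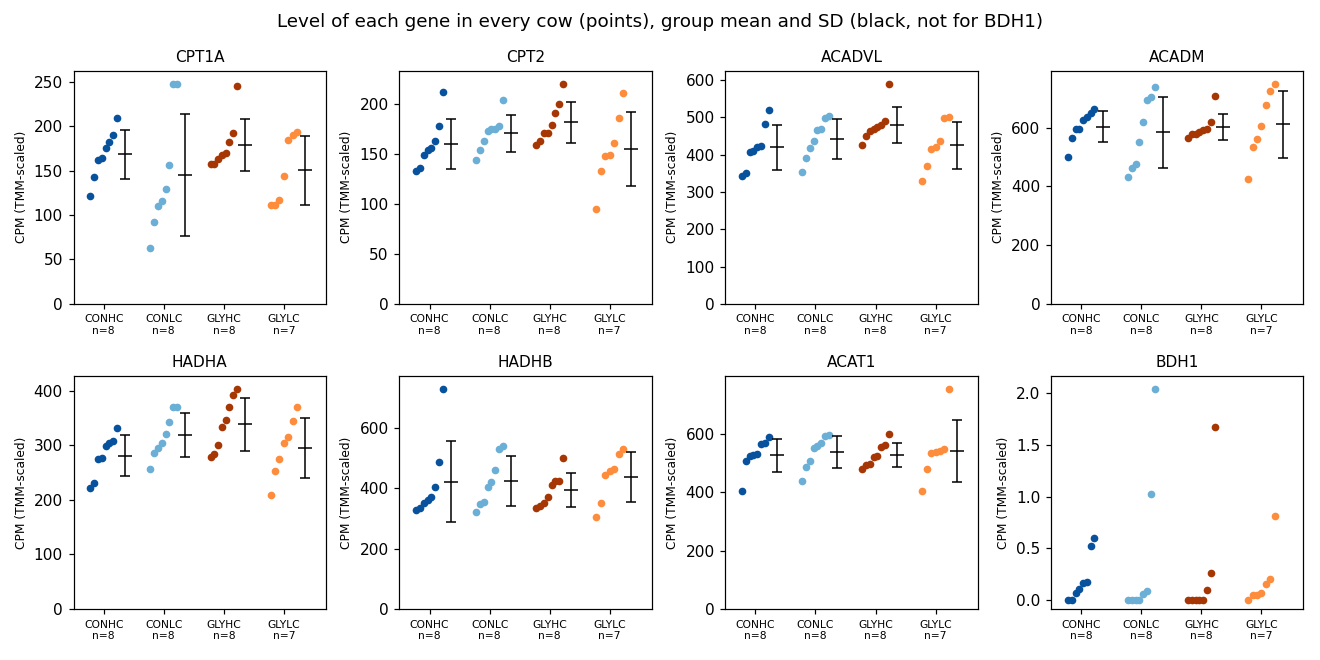
TMM-scaled CPM of each of the 8 members (panels) in the 31 cows (points), by feeding group, with bars for mean and SD except for *BDH1*. The 4 groups overlap in every panel, the LC groups spread more widely than the HC groups for *CPT1A* and *ACADM*, and *BDH1* is at or near 0 in most cows.

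The acyl-CoA dehydrogenases differ in the chain length they accept, *ACADVL* acting on very long-chain and *ACADM* on medium-chain acyl-CoA. Mean levels of *ACADVL* were 419.8 ± 59.6 CPM in CONHC, 443 ± 53.0 in CONLC, 480.4 ± 48.3 in GLYHC and 425 ± 62.4 in GLYLC (SD, n = 8, 8, 8 and 7). The lowest, median and highest GLYHC cows had 426, 472 and 589.9 CPM, and the CONHC cows 343, 416 and 521 CPM. So the lowest GLYHC cow was above the median CONHC cow, while the ranges overlapped. The log2 fold change of *ACADVL* between GLYHC and CONHC was 0.19 (SE 0.09, 95% confidence interval 0.00 to 0.39) with an unadjusted p of 0.0487 and an adjusted p of 1 by edgeR.

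*ACADM* had closely similar group means of 603 ± 53.0 CPM in CONHC, 585 ± 121 in CONLC, 602 ± 44.8 in GLYHC and 611 ± 115 in GLYLC (SD, n = 8, 8, 8 and 7). Its log2 fold change between HC and LC was 0.01 (SE 0.08, 95% confidence interval -0.15 to 0.17, edgeR adjusted p = 0.971). The share of the variance of its log2 CPM that lay between the 4 groups was 1.98%, beside 17.5% for *ACADVL*. Some share lies between groups of this size even without any effect of feeding, and these shares are given without a test.

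The ranges of *ACADM* were wider in the LC than in the HC groups. The values ran from 432 to 738 CPM in CONLC and from 424 to 748 CPM in GLYLC, but from 499 to 664 CPM in CONHC and from 564 to 706 CPM in GLYHC. The mean absolute deviation of log2 CPM from the group median was 0.24 in LC and 0.08 in HC cows for *ACADM*, and 0.42 and 0.16 for *CPT1A*. Without the 5 libraries with markers of another tissue, the difference between LC and HC was 0.11 instead of 0.16 for *ACADM* and 0.24 instead of 0.26 for *CPT1A*. Of 6588 genes with a mean of at least 10 CPM, 67% had a wider spread in LC cows, 3.48% had a difference at least as large as *ACADM* and 1.18% one at least as large as *CPT1A*. This measure was chosen after the values were seen and is given without a test. For the 5 other members with more than trace levels the difference was at most 0.04, and its sign turned for each of them without these 5 libraries.

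*HADHA* and *HADHB* encode the alpha and beta subunits of the trifunctional protein, and their genes lie side by side on the chromosome in mammals. The lowest, median and highest levels of *HADHA* were 222, 288 and 332 CPM in CONHC and 257, 312 and 369.7 CPM in CONLC. They were 278, 339.9 and 403 CPM in GLYHC and 209, 303.5 and 370.1 CPM in GLYLC. GLYHC had the highest median, and its range overlapped that of each other group. Its log2 fold change was 0.27 between GLYHC and CONHC (SE 0.11, 95% confidence interval 0.05 to 0.49, unadjusted p = 0.0198 and adjusted p = 1 by edgeR), 0.20 between GLYHC and GLYLC (SE 0.11) and -0.18 between CONHC and CONLC (SE 0.11). The interaction estimate of *HADHA* was 0.37 (SE 0.16, 95% confidence interval 0.05 to 0.69) with an unadjusted p of 0.0234 and an adjusted p of 0.999 by edgeR.

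*HADHB* had mean levels of 421 ± 134 CPM in CONHC, 422 ± 82.7 in CONLC, 394.5 ± 56.3 in GLYHC and 437 ± 82.2 in GLYLC (SD, n = 8, 8, 8 and 7). CONHC cow 134 had 727 CPM of *HADHB* and the next cow of its group 486, and by medians the order of the groups was CONHC (366), GLYHC (389.5), CONLC (412) and GLYLC (457 CPM), with overlapping ranges. The log2 fold change of *HADHB* between HC and LC was -0.08 (SE 0.10, 95% confidence interval -0.29 to 0.14, edgeR adjusted p = 0.822).

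The reads of both subunit genes were also compared within each cow, since such a ratio does not depend on library scaling. Its size depends on transcript length, so that only cows are compared. The lowest, median and highest ratios of *HADHA* to *HADHB* were 0.739, 0.865 and 0.950 in GLYHC and 0.553, 0.683 and 0.799 in GLYLC. In CONHC they were 0.457, 0.722 and 0.826, and in CONLC 0.557, 0.8002 and 0.877. All 8 GLYHC cows were above the median of GLYLC and above that of CONHC, and 6 of them were above the highest cow of either group. Against CONLC, 6 GLYHC cows were above the median and 4 above the highest cow. These comparisons share the GLYHC cows.

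The mean log2 ratio was 0.34 higher in GLYHC than in GLYLC (exact two-sided permutation test, p = 0.00186, adjusted p = 0.0224 over the 12 tests of 3 ratios in 4 comparisons). It was 0.32 higher in GLYHC than in CONHC (exact two-sided permutation test, p = 0.00513, adjusted p = 0.0308). The differences were -0.15 between CONHC and CONLC (exact permutation test, p = 0.280, adjusted p = 0.347) and -0.17 between GLYLC and CONLC (exact permutation test, p = 0.142, adjusted p = 0.243). The difference between HC and LC was 0.49 larger in GLY than in CON cows (SE 0.16, permutation test over 31 cows, p = 0.00324, adjusted p = 0.00972 over 3 ratios), an interaction test that was added after the pairwise values were seen. Without the 5 libraries with markers of another tissue this interaction was 0.48 (SE 0.19, permutation test over 26 cows, adjusted p = 0.0477). Without those 5 libraries the differences from GLYLC and CONHC were 0.34 and 0.33, each with an adjusted p of 0.0839 (exact permutation test), and without GLYLC cow 912 alone they were 0.35 and 0.32, each with an adjusted p of 0.0308. Without GLYHC cow 154 they were 0.37 and 0.35, and without GLYLC cow 544 they were 0.38 and 0.32. CONHC cow 134 had the lowest ratio of all 31 cows, 0.457. Without this cow the difference from CONHC was 0.24 (adjusted p = 0.0472, exact permutation test) and the interaction was 0.41 (adjusted p = 0.0178, permutation test). The difference from CONHC lost its adjusted p under 0.05 when GLYHC cow 32, 117, 127 or 159 or CONHC cow 7, 41, 123 or 208 was left out, with adjusted p of at most 0.0615 (exact permutation test).

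**Figure D2:**
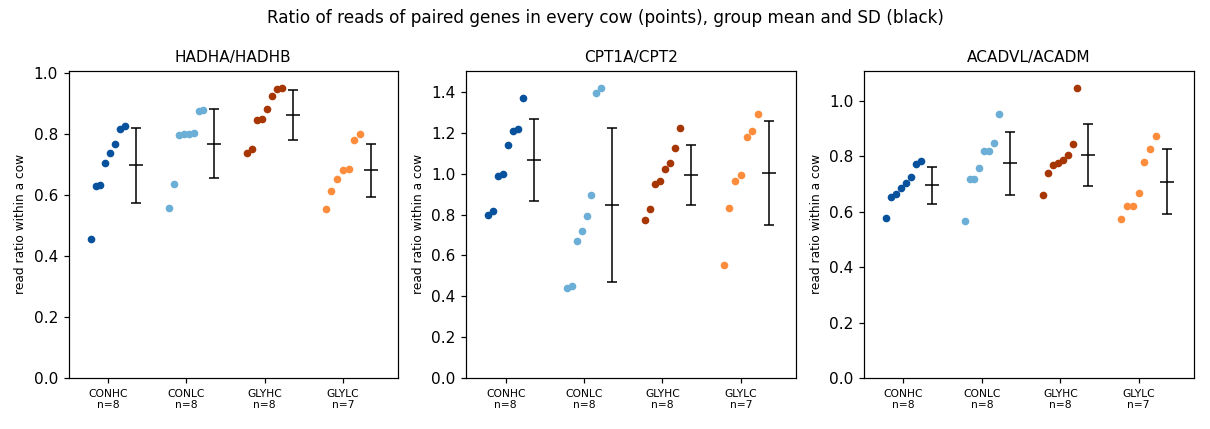
Read ratios within a cow for *CPT1A* to *CPT2*, *ACADVL* to *ACADM* and *HADHA* to *HADHB* (panels), by feeding group, 1 point per cow. For *HADHA* to *HADHB* the 8 GLYHC cows lie between 0.739 and 0.950, and 6 of them lie above all GLYLC and all CONHC cows.

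The 2 other ratios pair enzymes that act in the same step or in sequence. The log2 ratio of *ACADVL* to *ACADM* was 0.20 higher in GLYHC than in CONHC (exact permutation test, p = 0.0230, adjusted p = 0.0920 over the 12 tests), and 0.21 without the 5 libraries (adjusted p = 0.163, exact permutation test). Its interaction estimate was 0.33 (SE 0.14, permutation test, p = 0.0278, adjusted p = 0.0416 over 3 ratios), and 0.37 without the 5 libraries (adjusted p = 0.0477). Here too the interaction was tested only after the pairwise values were seen. With 1 cow left out, this interaction lay between 0.28 and 0.40, and its adjusted p rose above 0.05, to at most 0.0839, in 16 of 31 runs (permutation test), those without GLYHC cow 32, 117 or 152, GLYLC cow 102, 147, 544 or 905, CONHC cow 7, 133, 144 or 170 or CONLC cow 103, 145, 166, 259 or 260. For *CPT1A* to *CPT2* the largest difference was 0.43 between CONHC and CONLC (exact permutation test, p = 0.102, adjusted p = 0.243).

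Of the ketogenic members, *ACAT1* encodes the mitochondrial acetyl-CoA acetyltransferase, which also takes part in isoleucine breakdown. Its mean levels were 525.7 ± 56.6 CPM in CONHC, 537 ± 55.4 in CONLC, 528 ± 40.7 in GLYHC and 542 ± 106 in GLYLC (SD, n = 8, 8, 8 and 7). Between HC and LC its log2 fold change was -0.03 (SE 0.07, 95% confidence interval -0.17 to 0.10, edgeR adjusted p = 0.888), and 0.604% of its variance lay between the 4 groups, the smallest share of the members.

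*BDH1*, the 3-hydroxybutyrate dehydrogenase, had 194 reads over all 31 cows, from 0 to 57 per cow. The highest cow had 0.598 CPM in CONHC, 2.04 in CONLC, 1.67 in GLYHC and 0.813 in GLYLC, and the group medians lay between 0 and 0.139 CPM. In 12 cows there was no read. Over the depths of all 31 libraries, a count of 0 would allow a level of up to 0.0818 to 0.257 CPM (3 reads, for counting error only). The confidence interval of the log2 fold change between HC and LC ran from -1.84 to 1.39, and with 1 cow left out the estimate moved from -1.25 (without GLYHC cow 127) to 0.48 (without CONLC cow 166).

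Few cows carried most of these reads. GLYHC cow 127 had 57 reads of *BDH1*, CONLC cow 166 had 52, and CONLC cow 103 and GLYLC cow 544 had 17 each, together 143 of the 194 reads (73.7%). The 23 cows with 0 to 3 reads had 21 (10.8%). The 4 cows with the highest sums of the skeletal muscle markers *MYH1*, *MYH7*, *CKM* and *ACTA1* held 134 reads (69.1%), whereas GLYLC cow 544 had a muscle sum of 2.53 CPM and the highest adipocyte marker sum of all cows, 57.9 CPM. The 19 cows with a read of *BDH1* had a median muscle sum of 143.5 CPM (0.717 to 2650), and the 12 cows without one had 14.0 CPM (1.41 to 76.9).

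Over the 31 cows, log2 CPM of *BDH1* as deviation from the group mean correlated with the log2 muscle sum (Pearson r = 0.66, permutation test, p = 0.00035, adjusted p = 0.0035 over 10 genes, and Spearman rho = 0.64). Without the 2 cows farthest from the median muscle sum, r was 0.60. The relation was examined after the reads of *BDH1* were seen. For the 7 other members r lay between -0.37 and -0.07, with adjusted p of 0.239 or more (permutation test). *CPT1B*, the muscle form of the outer-membrane transferase, had r = -0.02. The part of muscle RNA in the reads of *BDH1* was not tested.

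**Figure D3:**
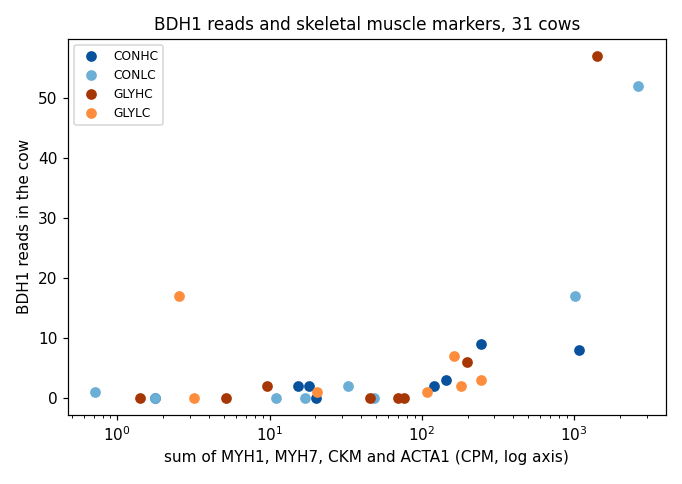
Reads of *BDH1* in each of the 31 cows, not scaled for depth, against the summed CPM of 4 skeletal muscle markers (log axis), coloured by feeding group. The cows with the highest muscle sums include GLYHC 127 and CONLC 166, which have the most *BDH1* reads, and GLYLC 544 has *BDH1* reads at a muscle sum of 2.53 CPM.

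The next question was whether the members rise and fall together among cows of the same group. Correlations were taken between deviations of log2 CPM from group means over 31 cows. Among the 7 members other than *BDH1*, all 21 pairs had a positive r, with a median of 0.58 (0.24 to 0.81), and 18 had an adjusted p under 0.05 in a permutation test (28 pairs of 8 members tested, by Pearson and likewise 18 by Spearman). For comparison, the pairs of 6588 genes with a mean of at least 10 CPM had a median r of 0.01, with 51.9% above 0 and 5.74% above 0.5, where 16 of the 21 pairs of members lay. All members of a cow share its library and scaling factor.

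The closest pair was *CPT2* and *ACAT1* (r = 0.81, adjusted p = 0.000187 over 28 pairs, permutation test), with r = 0.69 when the 2 cows farthest from the median of *CPT2* were left out. *HADHA* correlated with *CPT2* (r = 0.76), with *ACADVL* (r = 0.75) and with its partner *HADHB* (r = 0.68). *CPT1A* stood somewhat apart, with r from 0.24 to 0.67 to the 6 others and an adjusted p under 0.05 for 3 of them. Of these relations of *CPT1A* only that with *ACADM* still had a p under 0.05 without 2 cows, CONLC 60 and 166 (r = 0.67 with all cows and 0.58 without these, permutation p = 0.00880). *BDH1* had a negative r with each of the 7 other members, from -0.49 to -0.19. The adjusted p was under 0.05 for 3 of them by Pearson and for 2 by Spearman (permutation tests), and Spearman rho with *ACADM* was 0.01. These values rest on few reads, since 23 cows had 0 to 3 reads of *BDH1*.

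A few cows were extreme in most members. CONLC cow 166 was the lowest and CONHC cow 134 the highest cow of its group in 7 of the 7 members other than *BDH1*. GLYLC cow 912 was the lowest of its group in 5 of 7 and GLYLC cow 209 the highest in 4 of 7. Without the 5 libraries with markers of another tissue, among them cows 166 and 912, the median r over the 21 pairs was 0.43 (-0.06 to 0.74) over 26 cows, with 20 positive and 8 above 0.5. The hepatocyte marker sum, examined after these cows were seen, moved with several members. It had an adjusted p under 0.05 (permutation test, 8 members) with *ACAT1* (r = 0.62), *CPT2* (r = 0.58), *ACADM* (r = 0.55) and *HADHA* (r = 0.48), and when the 2 cows farthest from its median were left out, p was under 0.05 for *ACADM* (r = 0.47) and *ACAT1* (r = 0.44) only. Its part in the correlations among members was not tested.

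**Figure D4:**
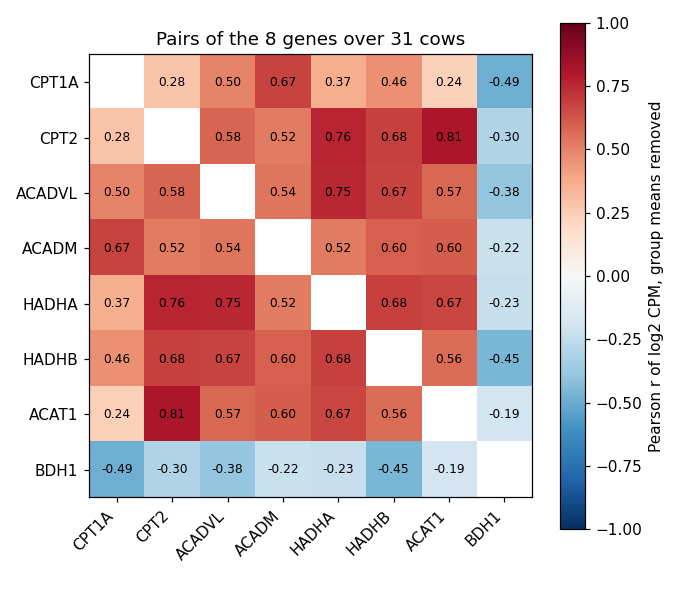
Pearson r between members over 31 cows, computed on log2 CPM as deviation from group means. The 21 pairs without *BDH1* lie between 0.24 and 0.81, and the row of *BDH1* runs from -0.49 to -0.19. Of its 7 pairs, 3 have an adjusted p under 0.05 (permutation test), and 23 cows had 0 to 3 reads of *BDH1*.

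Genes outside the list with the most similar pattern over the 31 cows were ranked by the same r, as a description. For *CPT1A* these were *TOR1AIP1* (r = 0.86), *TTC17* (0.85), *GPRIN3* (0.84), *SLC25A30* (0.83) and *BSDC1* (0.83). For the mean of the 8 standardized members they were *RAB4A* (r = 0.86), *SEC62* (0.85), *SLCO1B3* (0.83), *PECR* (0.82) and *ENSBTAG00000020279* (0.81). *PECR* encodes a peroxisomal enoyl-CoA reductase and *SLCO1B3* a hepatocyte uptake transporter.

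The neighbouring steps of the pathway were covered by 50 further genes. Between HC and LC 0 of them were called and 7 had an unadjusted p under 0.05, of which 5 were higher and 2 (*ACACA* and *PEX11A*) lower in HC, beside 5.88% and 7.81% of all tested genes. Between GLYHC and GLYLC 0 were called, and the 5 with an unadjusted p under 0.05 (*CRAT*, *CPT1B*, *EHHADH*, *ACAD9* and *ANGPTL4*) were all higher in GLYHC, beside 5.06% of all tested genes in this direction. In the other 5 comparisons 0 were called as well. In CONHC versus CONLC an unadjusted p under 0.05 was found for *ETFA* (higher), *SIRT3* and *ACACA* (both lower), beside 5.96% of all tested genes. It was found for *CRAT* and *CPT1B* in GLYHC versus CONHC (both higher, beside 2.92%). In GLYLC versus CONLC it was found for *SIRT3*, *PPARGC1A* and *ACACA* (all lower, beside 5.65%). The same held for *SLC22A5* and *FGF21* (higher) and *PDK4* (lower) in GLY versus CON (beside 3.92%). In the interaction it held for *CRAT*, *SIRT3* and *PPARGC1A* (all positive, beside 4.21%). The mean of *SIRT3* was 36.9 CPM in CONLC, and 32.0, 33.2 and 31.0 CPM in CONHC, GLYHC and GLYLC. The log2 fold change of *FGF21* in GLY versus CON was 0.97 with all cows and 0.54 without GLYLC cow 912 (unadjusted p = 0.230 by edgeR). Of these, *PEX11A*, *CPT1B*, *SIRT3*, *PPARGC1A* and *SLC22A5* are named because of their p. The median log2 fold change of the 50 genes between HC and LC was 0.04.

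In the carnitine shuttle, the smallest p was that of *CRAT*, the carnitine acetyltransferase that buffers acetyl-CoA. Its mean levels were 119.6 ± 25.8 CPM in CONHC, 128 ± 20.9 in CONLC, 161 ± 32.8 in GLYHC and 113 ± 15.2 in GLYLC (SD, n = 8, 8, 8 and 7). The log2 fold change between GLYHC and GLYLC was 0.52 (SE 0.13), with an adjusted p of 0.100338 by edgeR, just above the threshold, and of 0.0390 by DESeq2, which called it. Without GLYLC cow 912 the log2 fold change was 0.46 (adjusted p = 0.394 by edgeR). Its interaction estimate was 0.62 (SE 0.18, unadjusted p = 0.00184, adjusted p = 0.999 by edgeR). As with *HADHA*, GLYHC had the highest mean of the 4 groups. The paper, which used DESeq2 at the same thresholds, names *CRAT* in its figure of CFP-responsive genes that correlated with performance or blood values.

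In the other steps the gene with the smallest p between HC and LC was taken, and none was called by edgeR. In HC cows, peroxisomal *EHHADH* had a log2 fold change of 0.34 (SE 0.12), the dehydrogenase *ACAD9* of 0.27 (SE 0.13), the hydratase *ECHS1* of 0.16 (SE 0.07), the dienoyl-CoA reductase *DECR1* of 0.15 (SE 0.07) and the electron transfer flavoprotein subunit *ETFA* of 0.13 (SE 0.06). *ACACA*, which makes the malonyl-CoA that inhibits *CPT1A*, had -0.47 (SE 0.17, adjusted p = 0.182 by edgeR). The fatty acid binding protein *FABP1* had -0.30 (SE 0.17) and *OXCT1*, which starts ketone body use outside the liver, had -0.09 (SE 0.22).

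The receptor *PPARA*, which drives transcription of oxidation genes in fasting, was 0.12 higher in HC than in LC on the log2 scale (adjusted p = 0.742 by edgeR). Its known targets *PDK4*, *ANGPTL4* and *FGF21* had 0.13, 0.69 (SE 0.37) and -0.56 (SE 0.45), with adjusted p of 0.824, 0.418 and 0.633 by edgeR. Without GLYLC cow 912, which had 67.3 CPM of *FGF21*, its value was -0.14, and without CONHC cow 134 that of *ANGPTL4* was 0.41.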

How the data were processed

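The authors trimmed reads of a stranded mRNA library kit with Trim Galore, aligned them with HISAT2 2.1.0 to UMD3.1 and counted reads per gene with HTSeq 0.8.0 (tools per the labels and the paper's methods). Whether reads were counted by strand is not given in the sources used here. The authors deposited raw counts of 24616 genes, which were used. Their second table, normalized by DESeq2 1.20.0, was not used here.

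Cows were grouped by the labels, and each cow was 1 replicate. Genes with at least 20 reads in all (15916) were tested with edgeR 4.0.16 in R 4.3.3 (TMM, 4-group quasi-likelihood model, additive models for HC versus LC and GLY versus CON, Benjamini-Hochberg adjustment over all genes). Thresholds were p under 0.05 and adjusted p under 0.1. Log2 CPM used a prior count of 2. Read ratios were tested by exact permutation, and correlations and the interaction of ratios with 100000 permutations (scipy 1.17.1, Python 3.11.15). Only the edgeR steps were tested on simulated counts, and the ratio and correlation tests were not. The planted changes were far larger than the estimates of the members other than *BDH1*. They do not show whether changes as small as these would be found. With 11675775 to 36675542 reads per cow, floors and intervals from reads cover counting error only.

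The members and gene lists were chosen with earlier results of these data known. Named genes were the 8 members, in each role of a wider list the gene with the smallest p between HC and LC, any called gene of that list, *PPARA*, *PDK4*, *FGF21* and *ANGPTL4*, and the 5 genes most similar to *CPT1A* and to the members' mean. Of 59 listed symbols 58 were found; *OXCT2* was not. Some genes that this rule covers are not reported here and are in none of the list's counts. Alternatives were other normalizations, filters and thresholds, DESeq2 1.42.0, only the compared groups, each cow left out, and, chosen after the data were seen, leaving out 5 cows with markers of another tissue. No sequence or position of a gene is printed, because a UMD3.1 annotation was not used here.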

Additional observations from a re-analysis of the deposited data

Results flagged for a closer look

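The values of 21 genes and 3 read ratios in 4 groups (96 groups of values) were screened for a lowest or highest cow far from the other cows of its group by Dixon's criterion, and 19 were found. For independent, normally distributed values the criterion would flag about 1 in 20 groups. The screened values were not log-transformed, and the same cows recur across genes, so the 19 cannot be set against that share. The causes were not tested.

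Among the members, GLYHC cow 32 had 245 CPM of *CPT1A* (next cow 192), GLYHC cow 117 had 589.9 CPM of *ACADVL* (next 489) and GLYHC cow 37 had 706 CPM of *ACADM* (next 618). CONHC cow 134 had 727 CPM of *HADHB* (next 486). *ACAT1* was high in GLYLC cow 209 with 751 CPM (next 549) and low in CONHC cow 41 with 403 CPM (next 507). *BDH1* was high in GLYHC cow 127 with 1.67 CPM (next 0.264) and in GLYLC cow 544 with 0.813 CPM (next 0.206).

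Among the other genes of the pathway, GLYLC cow 912, the library with intestinal markers, was lowest for *DECR1* with 123 CPM (next 179) and for *EHHADH* with 169 CPM (next 498), and highest for *FGF21* with 67.3 CPM (next 13.4). CONHC cow 134 was highest for *FGF21* with 21.3 CPM (next 8.19), for *ANGPTL4* with 71.4 CPM (next 29.97) and for *CRAT* with 181 CPM (next 119). *ANGPTL4* reached 48.4 CPM in CONLC cow 60 (next 24.4), and *ACACA* 98.7 CPM in CONLC cow 941 (next 56.8). *FABP1* was low in CONHC cow 7 with 907 CPM (next 1633). *OXCT1* was high in GLYHC cow 127 with 9.81 CPM (next 5.23) and in CONLC cow 166 with 15.8 CPM (next 8.53), 2 libraries with high muscle markers, and over 31 cows its r with the muscle sum was 0.56 (permutation test, adjusted p = 0.0146 over 10 genes, and r = 0.47 without 2 cows).

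In 2 of the 3 read ratios within a cow, the log2 difference HC minus LC was higher in GLY than in CON cows. The test of this was added after the pairwise values of the same ratios were seen. Its adjustment covers these 3 ratios only, and other gene pairs are not given as background. For *ACADVL* to *ACADM* the smallest adjusted p of a pairwise comparison was 0.0920 (exact permutation test, GLYHC versus CONHC). The interaction on the log2 scale was 0.49 for *HADHA* to *HADHB* and 0.33 for *ACADVL* to *ACADM*, with adjusted p of 0.00972 and 0.0416 over 3 ratios (permutation tests over 31 cows). Without the 5 libraries with markers of another tissue the values were 0.48 and 0.37, each with an adjusted p of 0.0477 (permutation tests over 26 cows). For the second, adjusted p rose above 0.05 in 16 of 31 runs with 1 cow left out.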

How the results depend on the processing

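No paired analysis was possible because each cow has a number of its own and the groups share none. In 281 runs of a comparison under an alternative, 0 members were called, and the smallest adjusted p of a member was 0.203 (*CPT2*, GLYHC versus GLYLC, without GLYLC cow 209, edgeR). Counts over all genes moved more. For HC versus LC, 231 genes were called and 42 to 434 under other settings or 83 to 404 with 1 cow left out, and for GLYHC versus GLYLC 32, with 0 to 143 and 0 to 150. Between CONHC and CONLC 0 genes were called, with 0 to 80 and 0 to 7, and between GLYLC and CONLC 10, with 0 to 41 when 1 cow was left out. DESeq2 on all cows called 434 genes between HC and LC, 27 between CONHC and CONLC, 143 between GLYHC and GLYLC, 4 between GLYLC and CONLC, 0 between GLYHC and CONHC, 1 for GLY versus CON and 1 for the interaction.

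The log2 fold changes between HC and LC that lay near 0 changed sign, and none of these had an adjusted p under 0.1. Without the 5 cows with markers of another tissue they were -0.00114 for *ACADVL*, -0.070 for *ACADM*, -0.060 for *HADHA* and 0.076 for *OXCT1*. With total reads and no TMM factor they were -0.012 for *ACADM* and -0.027 for *HADHA*, and with edgeR's own filter -0.000137 for *HADHA*. With each cow left out in turn, the range was -0.018 to 0.041 for *ACADM*, -0.040 to 0.030 for *HADHA*, -0.062 to 0.013 for *ACAT1*, -1.25 to 0.48 for *BDH1* and -0.20 to 0.11 for *OXCT1*. The sign of *BDH1* turned without CONLC cow 166 (0.48) or GLYLC cow 544 (0.10), and its lowest value came without GLYHC cow 127.

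The log2 ratio of *HADHA* to *HADHB* without those 5 cows was 0.34 (GLYHC versus GLYLC) and 0.33 (GLYHC versus CONHC), both with an adjusted p above 0.05, with fewer cows tested. With 1 cow left out it was 0.24 to 0.36 against CONHC, with an adjusted p under 0.05 in 23 of 31 runs, and 0.29 to 0.38 against GLYLC, with an adjusted p under 0.05 in all 31 (exact permutation tests). *CRAT* between GLYHC and GLYLC was called with RLE factors, with total reads, by DESeq2, and without GLYLC cow 147, 209 or 905 or CONHC cow 134. The interaction on this ratio was 0.41 to 0.55, with an adjusted p under 0.05 in all 31 runs (permutation tests), and that on *ACADVL* to *ACADM* was 0.28 to 0.40, with an adjusted p above 0.05 in 16. *BDH1* rests on 194 reads; the other members had at least 63.3 CPM in every cow.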

Other observations

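Among 13 regulators in the wider list, among them *PPARA*, *PPARGC1A*, *SIRT3*, *HNF4A* and the malonyl-CoA producing *ACACA* and *ACACB*, the estimate of the interaction of GLY with CFP was positive for 13, with a median of 0.29 on the log2 scale, against 8224 of all 15916 tested genes. This role was singled out of 10 after the counts were seen, and the wider list as a whole had 39 positive estimates among 50 genes. Whether regulators differ from the rest of it was not tested. 0 of the 13 were called by edgeR (0% of all genes) and 2 had an unadjusted p under 0.05 (4.21% of all genes). These were *PPARGC1A* with 0.63 (SE 0.24) and *SIRT3* with 0.31 (SE 0.13), which are named because of these values. *PPARGC1A* encodes a transcriptional coactivator of mitochondrial genes and *SIRT3* a mitochondrial deacetylase. Regulators that act in opposite directions on fatty acid oxidation are in this count together.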
